A study of Mus musculus with 48 samples.

Results

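The effect of irradiation averaged over the first week was described here across all genes of hippocampal microglia, as the mean of the irradiated minus sham differences at 2 h, 6 h, 1 day and 1 week, each weighted equally. All 48 libraries of the series entered it, and 13187 of the 48526 genes in the table had enough reads to be tested. Attention went to genes of few reads and to modest, steady effects that comparisons at a single time passed over. The animals were juvenile C57BL/6 mice. The irradiated ones received 8 Gy to the whole brain as a single dose on postnatal day 21, and the sham ones received none. Irradiated and sham mice were killed at each of the 4 times, which makes 8 groups of 6 animals, with separate sham animals at every time. The hippocampus was taken after perfusion, digested with enzymes, and sorted by flow cytometry on Cx3cr1, the fractalkine receptor of microglia; sex is not stated, nor whether Cx3cr1 was read by an antibody or a reporter. Bulk total RNA was sequenced, so fewer cells of a type and less RNA per cell cannot be told apart.

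Ionizing radiation breaks DNA, and cells answer through the kinase ATM and the transcription factor p53, which switches on genes of cell cycle arrest, repair and death. Microglia, the resident macrophages of the brain, also answer with cytokines and interferon-stimulated genes and can lower the genes of their surveying, homeostatic state. Some of these responses last minutes to hours and others persist, and an average over times favours the second kind.

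Levels are given as RPM, the reads of a gene scaled to a library total of 1000000 reads on genes, and effects as irradiated minus sham on the log2(RPM + 1) scale with the standard error after ±. RPM is not corrected for gene length, so levels are not compared between genes. A gene was called at a Benjamini-Hochberg adjusted p under 0.05 in limma over the 13187 genes. It was called on the average or at a single time from the same fit, and p-values measure the spread between separate animals.

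Libraries held 175382 to 3856777 reads on genes (median 2212424), and 3 held under 1000000: sham 1 day library 6, irradiated 2 h library 2 and sham 6 h library 4. Of the 8 microglia markers all were tested, with Cx3cr1 at 3346 to 5353 RPM in irradiated and 3705 to 6928 RPM in sham libraries. On the average 1 of the 8 rose and 4 fell, against 8.9% and 6.2% of all genes. Their summed level at 6 h was 27842 to 31212 RPM in irradiated and 31408 to 38257 RPM in sham libraries. At 1 day it was 22292 to 29151 RPM in irradiated and 30505 to 36956 RPM in sham libraries, and at 2 h and 1 week the ranges overlapped. Of 14 lymphocyte markers 4 were at 0 in all 48 libraries, among them the T cell markers Cd3e and Cd3g. Of 13 monocyte and neutrophil markers 2 were, among them the neutrophil marker Ly6g. Other markers had reads in 24 of 24 irradiated and 24 of 24 sham libraries. Their medians in irradiated and sham libraries were 557 and 684 RPM for Ighm, and 75.6 and 92.7 RPM for the perivascular macrophage marker Mrc1. Ccr2 and the oligodendrocyte marker Cnp were also in every library. The part of other cells in the results was not tested. On the largest component of variation (15.9%), sham 6 h libraries 1 to 4 lay at -58.2 to -49.8, with libraries of the 2 h groups, and sham 6 h libraries 5 and 6 at 15.5 and 18.5, near the irradiated 6 h libraries (20.2 to 31.7). Counts on the average, and genes called on the average alone, are given with and without sham 6 h libraries 1 to 4. This was done where leaving them out changed a call or moved a count by over 1.5 times. Counts at single times and by read depth are given with all libraries only. Leaving them out keeps sham libraries 5 and 6 alone at 6 h. A lost call can then come from lost precision or from a changed effect, and these were not told apart. Mitochondrial genes at 2 h took 6.14 to 14.6% of an irradiated library and 3.05 to 9.34% of a sham library, and at 1 week 2.56 to 4.38% of an irradiated and 1.42 to 2.36% of a sham library. The order was the other way at 6 h, with medians of 3.08% in irradiated and 5.89% in sham libraries, and at 1 day, with 2.25% in irradiated and 3.85% in sham libraries; the part of this share in the results was not tested.

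Averaged over the 4 times, 1174 genes rose (8.9% of those tested) and 818 fell (6.2%). The rises were larger than the falls: the median effect was 0.69 among genes that rose and -0.44 among those that fell, and 288 rises but 23 falls reached 1 or more in size. The 3 largest rises were the cell cycle inhibitor Cdkn1a (5.73 ± 0.16), the matrix protein gene Matn1 (5.41 ± 0.14) and Fam212b (5.38 ± 0.17). The 3 largest falls were the orphan receptor Gpr165 (-1.86 ± 0.19), the lectin-like receptor Klrd1 (-1.85 ± 0.21) and D7Ertd443e (-1.73 ± 0.30). Over all 13187 genes the median average effect was 0.03. Single times called 1206 genes at 2 h (9.15%), 2645 at 6 h (20.1%), 640 at 1 day (4.85%) and 453 at 1 week (3.44%). These counts use all libraries, and how far the 6 h count depends on sham 6 h libraries 1 to 4 is not given here. Of the genes called on the average, 1007 were called at 1 time, 477 at 2, 166 at 3 and 44 at all 4 times. The split between directions changed with a correction for gene span, introns included. With the trend against span removed from each library, 897 genes rose and 1101 fell, so 44.9% of calls were rises, against 58.9%. The correction also removes any response that goes with span, and the cause of the change was not tested. Without sham 6 h libraries 1 to 4, 722 genes rose and 616 fell.

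The average called 298 genes that no single time called (2.26% of those tested), 169 higher and 129 lower. Their median effect was 0.58 in size and 116 were under 0.5. In 242 of the 298 all 4 estimates had the same sign, and in 3 the effect differed between times in an F test of the 3 adjacent differences (adjusted p under 0.05), against 2421 of all 13187 genes and 838 of the 1992 called. Being called at no single time limits how far the 4 estimates can differ, so nothing is read from either count. At single times 281 of these genes had an unadjusted limma p under 0.05 at 1 time or more, and 151 at 2 or more. The average is made of the same 4 estimates, so a call on it favours such values. Nothing is read from these 2 counts. The standard error of the average was 0.5 of that of a single time (median over genes), which the use of 4 times as many animals gives by construction. Of the 298, 90 were still called on the average without sham 6 h libraries 1 to 4, and 186 without the 3 libraries under 1000000 reads. Both settings leave fewer animals, and the part of lost precision in the lost calls was not tested. In these 2 settings 79 and 150 of the 298 were still called on the average and at no single time. The largest adjusted p of a called gene was 0.0497 and the smallest of an uncalled gene 0.05002.

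Among the genes called on the average alone, Rbl2 had the smallest adjusted p of the rises in genes that are neither predicted nor small RNA genes. Rbl2 encodes p130, a relative of the retinoblastoma protein that holds E2F target genes down in resting cells (chromosome 8, 91070057 to 91123844, GRCm38). Group values here and below are the median with the lowest and highest of 6 libraries in parentheses. Rbl2 at 2 h had 141 RPM (98.5 to 197) in irradiated and 53.3 RPM (39.0 to 132) in sham libraries. Rbl2 at 6 h had 75.6 RPM (54.9 to 94.5) in irradiated and 41.1 RPM (32.3 to 70.3) in sham libraries. At these 2 times the groups overlapped through the highest sham library. Rbl2 at 1 day had 48.9 RPM (26.4 to 66.8) in irradiated and 32.2 RPM (0 to 41.0) in sham libraries. Rbl2 at 1 week had 59.6 RPM (42.7 to 74.0) in irradiated and 30.3 RPM (23.4 to 38.1) in sham libraries. Only at 1 week did every irradiated library lie above every sham library, and the 0 at 1 day was the shallowest library, sham 1 day library 6. The 4 effects were 1.18, 0.77, 1.36 and 0.96, each ± 0.46, with adjusted p between 0.0800 and 0.266. Their average was 1.07 ± 0.23 (limma adjusted p = 0.000562). Without sham 1 day library 6 the 1 day estimate was 0.52 and the average effect of Rbl2 0.86 (limma adjusted p = 2.23e-07). The effect was smaller and the p lower, so that library had widened the spread shared by all 4 estimates. Calls of Rbl2 at single times without it are not given here, so its place among genes called on the average alone may rest on that library. Rbl2 shares positions with Aktip, so reads of the pair could not be separated with certainty.

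Ndufb6, an accessory subunit of mitochondrial complex I (chromosome 4, 40270591 to 40279421), showed the same pattern at a lower level. Ndufb6 at 2 h had 19.2 RPM (12.6 to 28.8) in irradiated and 7.34 RPM (2.99 to 18.01) in sham libraries. Ndufb6 at 6 h had 11.3 RPM (8.59 to 14.6) in irradiated and 8.43 RPM (3.28 to 10.1) in sham libraries. In both cases the groups overlapped. Ndufb6 at 1 day had 11.7 RPM (3.75 to 23.5) in irradiated and 5.87 RPM (0 to 13.97) in sham libraries. Ndufb6 at 1 week had 8.40 RPM (6.39 to 10.1) in irradiated and 4.06 RPM (3.57 to 5.23) in sham libraries. At 1 week the groups did not overlap, and the sham libraries lay close together. The effects of 1.27, 0.62, 1.26 and 0.84 (each ± 0.44) averaged 1.00 ± 0.22 (adjusted p = 0.0006), and the smallest adjusted p at a single time was 0.0557. Toporsos, which lies over the same positions, could share reads with it.

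Lrrfip1, which binds nucleic acids in the cytosol and takes part in interferon induction, had estimates below 1 log2 unit at every time (chromosome 1, 90998737 to 91128944). Lrrfip1 at 2 h had 78.5 RPM (65.3 to 116) in irradiated and 52.5 RPM (30.5 to 64.7) in sham libraries. Lrrfip1 at 6 h had 61.4 RPM (51.7 to 84.2) in irradiated and 44.9 RPM (42.1 to 48.2) in sham libraries. The groups did not overlap at 2 h or at 6 h. Lrrfip1 at 1 day had 51.4 RPM (46.0 to 256) in irradiated and 44.0 RPM (26.2 to 67.0) in sham libraries. Lrrfip1 at 1 week had 54.8 RPM (34.1 to 78.1) in irradiated and 38.5 RPM (27.9 to 57.1) in sham libraries. At the later times the groups overlapped, and 1 irradiated library at 1 day stood far above the others. The average effect was 0.58 ± 0.13 (adjusted p = 0.000785), and it was 0.20 to 0.63 over 18 alternative settings that tested the gene, the lowest being the RPKM as deposited, where it was not called.

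Zfp148, a zinc finger transcription factor, had the smallest adjusted p of the falls called on the average alone, with nearly equal estimates throughout (chromosome 16, 33380775 to 33503903). Zfp148 at 2 h had 194 RPM (171 to 223) in irradiated and 260.2 RPM (187 to 283) in sham libraries. Zfp148 at 6 h had 158 RPM (144 to 172) in irradiated and 199 RPM (169.9 to 235) in sham libraries. A low sham library at each time reached into the irradiated range. Zfp148 at 1 day had 162 RPM (124 to 264) in irradiated and 223 RPM (166 to 242) in sham libraries. Zfp148 at 1 week had 146 RPM (132 to 236) in irradiated and 207 RPM (172 to 275) in sham libraries. Here the groups overlapped more, and the highest irradiated library at 1 day lay above all sham libraries. The effects were -0.35, -0.34, -0.34 and -0.37 (each ± 0.15), and none had an adjusted p below 0.103. The average was -0.35 ± 0.07 (adjusted p = 0.000492), and the F test found no difference between times (adjusted p = 0.999).

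Ppp2r3a encodes a regulatory subunit of protein phosphatase PP2A (chromosome 9, 101105084 to 101251795), and its estimates were lower at the first 3 times than at the last. Ppp2r3a at 2 h had 25.7 RPM (20.2 to 35.1) in irradiated and 44.3 RPM (24.6 to 105) in sham libraries. Ppp2r3a at 6 h had 15.7 RPM (8.78 to 20.6) in irradiated and 23.3 RPM (17.6 to 49.2) in sham libraries. Both pairs of groups overlapped at their edges. Ppp2r3a at 1 day had 18.5 RPM (7.37 to 22.5) in irradiated and 29.7 RPM (21.6 to 34.3) in sham libraries. Ppp2r3a at 1 week had 22.4 RPM (15.6 to 65.0) in irradiated and 32.8 RPM (16.6 to 45.0) in sham libraries. The 1 week ranges lay over each other, and the estimate there was -0.24 ± 0.31, against -0.73, -0.75 and -0.86 earlier. The average was -0.65 ± 0.15 (adjusted p = 0.00176).

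Rras2, a small GTPase of the Ras family (chromosome 7, 114046782 to 114117781), had a single extreme sham library. Rras2 at 2 h had 14.8 RPM (6.75 to 27.8) in irradiated and 16.7 RPM (14.5 to 404) in sham libraries. Rras2 at 6 h had 9.76 RPM (4.86 to 11.9) in irradiated and 21.4 RPM (14.9 to 30.9) in sham libraries. The 6 h groups did not overlap, whereas the 2 h medians were close and sham 2 h library 6 was at 404 RPM. Rras2 at 1 day had 20.8 RPM (10.8 to 39.0) in irradiated and 31.2 RPM (21.2 to 60.5) in sham libraries. Rras2 at 1 week had 15.99 RPM (11.03 to 23.1) in irradiated and 29.0 RPM (19.1 to 47.6) in sham libraries. Later groups overlapped in part, with every median lower after irradiation. The average was -0.91 ± 0.22 (adjusted p = 0.00197), and the average effect of Rras2 without sham 2 h library 6 was -0.73 (adjusted p = 0.000296).

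**Figure D1:**
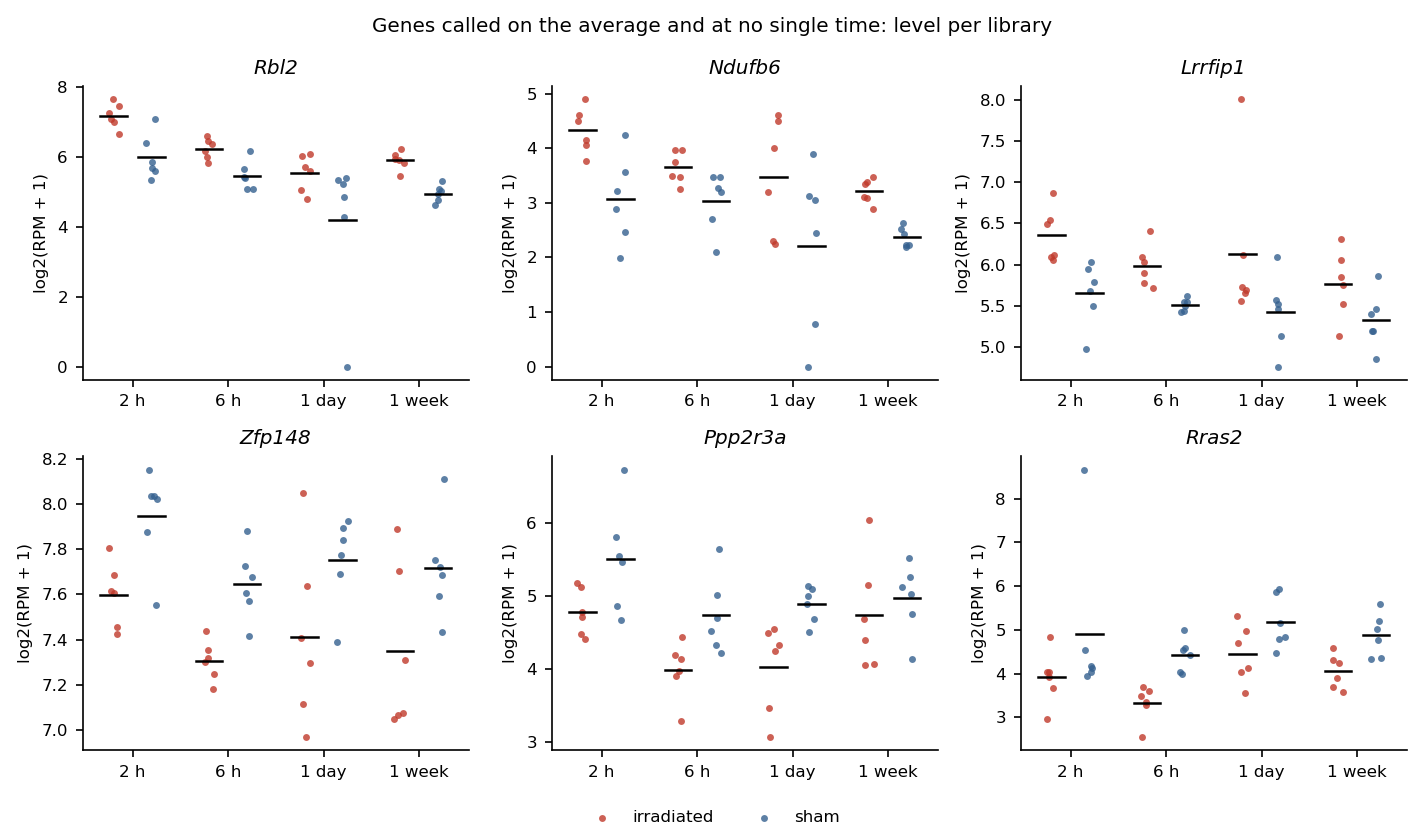
Level of 6 genes called on the average and at no single time. Each point is 1 library, irradiated left of sham at each time on the x axis; the y axis is log2(RPM + 1) and differs between panels; bars are group means of 6. Irradiated means lie above sham means at all 4 times for Rbl2, Ndufb6 and Lrrfip1 and below them for Zfp148, Ppp2r3a and Rras2, with overlapping points at most times.

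The other 9 of the 12 named rises came from varied functions. Lrp11, a low-density lipoprotein receptor-related protein, averaged 0.90 ± 0.21, and the scaffold protein gene Disc1 averaged 1.02 ± 0.24. Dnajc9, a co-chaperone of histones, averaged 0.94 ± 0.22 but was not called without sham 6 h libraries 1 to 4. The mechanically gated cation channel Piezo1 rose by 0.82 ± 0.20, with estimates between 0.67 and 1.06 at the 4 times, and shares positions with Ctu2. The 1 day estimate of Piezo1, 0.68, rested on sham 1 day library 6, which had no read. Without that library it was 0.03 and the average 0.66 (limma adjusted p = 0.00044, against 0.00227 with it). Cmpk2, a mitochondrial nucleotide kinase induced by interferon, rose by 1.18 ± 0.29; it had no read in 1 of 24 irradiated and 8 of 24 sham libraries. Ranbp1, which binds the nuclear transport GTPase Ran and overlaps Trmt2a, rose by 0.62 ± 0.16. The lysophosphatidic acid receptor gene Lpar2 averaged 0.79 ± 0.20 and Phlda1 1.00 ± 0.26, at 7.42 and 5.06 reads per library. The last was Degs1, the desaturase that makes ceramide, at 0.33 ± 0.08; it lost its call in the average without 2 h and with the gene span trend removed.

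The other 9 named falls were mostly below 1 in size. Rasgrf2, an exchange factor that activates Ras, fell by 0.71 ± 0.17 on the log2 scale, Map3k2, a kinase at the top of a MAP kinase cascade, by 0.34 ± 0.09, and Cbl, a ubiquitin ligase of activated receptor kinases, by 0.23 ± 0.06. Cbl was the smallest effect of the 24, carried by 645 reads per library, with medians of 262 RPM in irradiated and 316 RPM in sham libraries. Map3k2 was not called without sham 6 h libraries 1 to 4, nor was Ino80c, a subunit of the INO80 chromatin remodeller (-0.49 ± 0.13), which also lost its call in the average without 2 h. Zswim5 averaged -1.03 ± 0.26, Ankrd46 -0.51 ± 0.13, and the transcriptional regulator Sertad2 -0.40 ± 0.10. At 2 h Zswim5 was at 90.3 and 214 RPM in sham libraries 1 and 3. The other sham libraries there were at 6.15 to 12.4 RPM and the irradiated ones at 5.49 to 18.8 RPM. The GTPase gene Arl15 averaged -0.47 ± 0.12 and the lipid hydrolase gene Adtrp, at 4.25 reads per library, -0.82 ± 0.21. Adjusted p for the average of the 24 genes ran up to 0.00556, and no gene of the 24 lost its call when any 1 library was left out. Without sham 1 day library 6, which held no read of 8 of the 24, all 24 kept their sign at 1 day, but the 1 day estimate moved by over 1.5 times in 8. These were Rbl2, Piezo1, Ankrd46, Phlda1, Ranbp1, Rasgrf2, Disc1 (0.68, against 1.39 with it) and Ndufb6 (0.82, against 1.26).

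**Figure D2:**
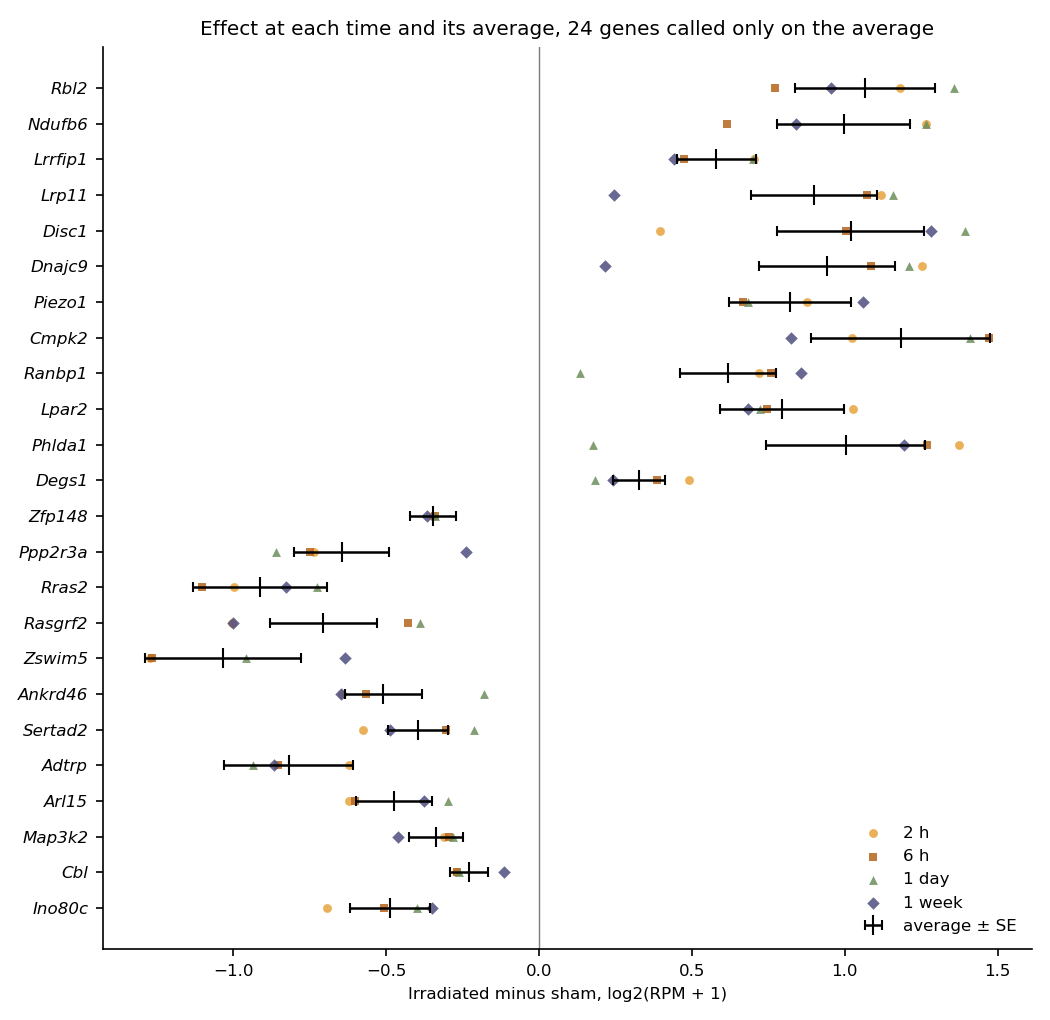
Effect of irradiation in the 24 named genes called on the average alone. The x axis is irradiated minus sham on the log2(RPM + 1) scale; coloured symbols are the 4 times and black bars the average ± standard error. All 4 symbols lie on the side of the average for each gene, from -1.03 for Zswim5 to 1.18 for Cmpk2, and those of Zfp148 nearly coincide.

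The share of genes called on the average varied with the reads on a gene. Of the 3294 genes with 2 to 10 mean reads per library, 6.83% were called on the average, against 25.3% of the 3933 genes with 100 or more. As a share of calls, average-only genes went the other way: 25.8% among genes of 2 to 10 reads, 23.6% at 10 to 30, 17.5% at 30 to 100 and 8.84% at 100 or more. Of the genes tested they were 58 of 3294, 65 of 2452, 87 of 3508 and 88 of 3933. That is no steady trend, with 2.26% over all genes. The trend in the share of calls goes with the number of genes called, and nothing is read from it. Directions also differed along this scale, with 181 rises and 44 falls at 2 to 10 reads and 451 rises and 544 falls at 100 or more. Median effects of called genes were 0.84 in size in the lowest class and 0.41 in the highest, where the standard error was 0.11 rather than 0.23. A fall from a level near 0 has little room on this scale. The read filter can also admit a gene by its reads in irradiated libraries alone. The part of either in the split of directions was not tested.

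**Figure D3:**
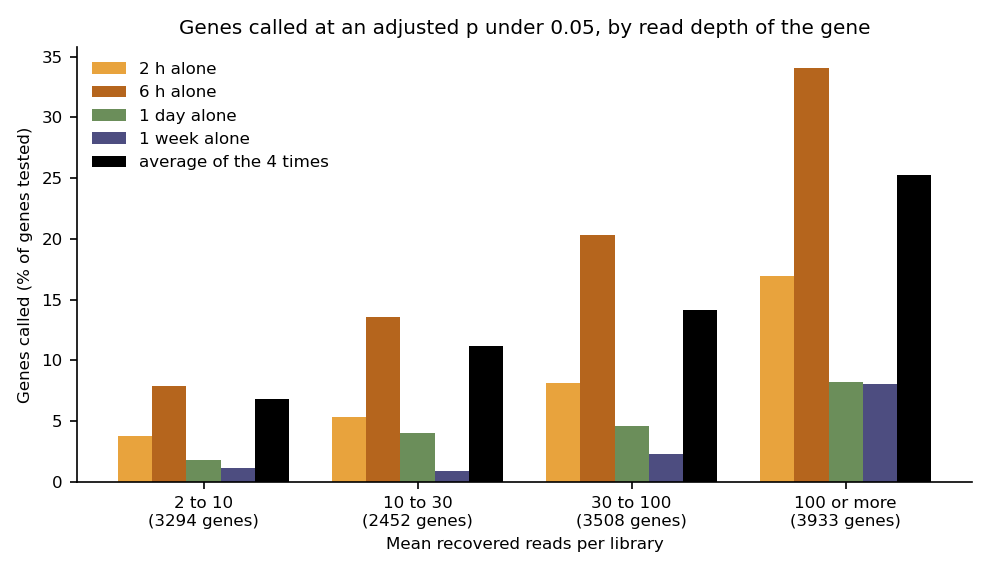
Share of genes called by read depth of the gene. The x axis groups the 13187 genes by mean recovered reads per library, and bars give the percentage called at each time alone and on the average. In the class of 2 to 10 reads the average called 6.83% and 6 h alone 7.86%; 6 h alone stayed above the average in every class.

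Among genes of under 10 mean reads the calls of smallest adjusted p were rises of receptors and other genes at or near 0 in sham animals. The read filter and this class count irradiated libraries too, so a gene silent in sham animals can enter by its irradiated reads. A large rise at so few mean reads then needs a sham level near 0, and nothing is read from those levels. Zfp365, a zinc finger gene, had a median of 7.17 RPM (0 to 20.4) in the 24 irradiated and 0 RPM (0 to 1.37) in the 24 sham libraries, an average effect of 2.38 ± 0.15. Eda2r, the ectodysplasin A2 receptor, had 6.47 RPM (0 to 14.5) in irradiated and 0 RPM (0 to 0.439) in sham libraries, with no read in 23 of 24 sham libraries (2.52 ± 0.20). Tnfrsf10b, the death receptor for TRAIL, had 5.01 RPM (0.399 to 30.3) in irradiated and 0.417 RPM (0 to 3.25) in sham libraries (2.22 ± 0.19). All of them were called at 3 or 4 single times, so the average was not needed to find them. Eda2r remained at 1.55 at 1 week (adjusted p = 0.0213), while Zfp365 was at 0.47 there and was not called. The phospholipase gene Plb1 (2.10 ± 0.22), Ahnak2 (1.75 ± 0.18), the RNA-binding protein gene Celf5 (1.65 ± 0.19), the kinesin gene Kifc1 (1.59 ± 0.19) and Crip2 (1.52 ± 0.16) followed. Their sham medians were 0 RPM, so the sizes depend on the added 1 RPM and no fold change is given.

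Falls among genes of few reads were smaller and mostly rested on 1 single-time call. Grm3, a metabotropic glutamate receptor, had a median of 0.178 RPM (0 to 1.99) in irradiated and 1.90 RPM (0 to 34.6) in sham libraries, with no read in 12 of 24 irradiated and 2 of 24 sham libraries. Adra2a, the alpha-2A adrenergic receptor, had 0.755 RPM (0 to 4.39) in irradiated and 3.43 RPM (0 to 14.4) in sham libraries. The average effects were -1.21 ± 0.23 for Grm3 and -1.23 ± 0.26 for Adra2a (adjusted p = 8.64e-05 and 0.000407). Both were lower at all 4 times, and 6 h was the 1 time at which each was called. Ranbp3l averaged -0.91 ± 0.21, the inhibitory lectin gene Siglecg -0.85 ± 0.21 and the mitophagy receptor gene Bnip3 -0.72 ± 0.18. Prr15l (-1.14 ± 0.24), Ipcef1 (-0.99 ± 0.25) and the acetyl-CoA synthetase gene Acss2 (-0.92 ± 0.23) had 1 time with an estimate above 0. Siglecg and Bnip3 were not called in the average without 1 day, Acss2 and Ipcef1 without 6 h, and Ipcef1 also without 2 h.

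Steady genes were those called on the average whose 4 estimates had 1 sign and whose smallest estimate was at least 0.5 of the average. There were 291 of them (2.21%), 177 higher and 114 lower, with a median effect of 0.71 in size. They were not the strong single-time genes alone: 82 were called at no single time, 106 at 1 time, and 36 at all 4. In 28 of the 291 the F test across times was below an adjusted p of 0.05, a count that the rule itself limits. Without sham 6 h libraries 1 to 4, 226 of the 291 were still called on the average.

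The 10 largest steady rises were mostly known targets of p53. Cdkn1a, the gene of p21, which blocks cyclin-dependent kinases and so the cell cycle, is the best studied of them (chromosome 17, 29090979 to 29100722). Cdkn1a at 2 h had 1198 RPM (843 to 1521) in irradiated and 13.95 RPM (4.83 to 44.3) in sham libraries. Cdkn1a at 6 h had 1445 RPM (1126 to 1937) in irradiated and 17.97 RPM (10.1 to 68.1) in sham libraries. The lowest irradiated library was far above the highest sham library at both times. Cdkn1a at 1 day had 970.3 RPM (927 to 1209) in irradiated and 19.0 RPM (14.9 to 29.6) in sham libraries. Cdkn1a at 1 week had 812 RPM (731 to 1128) in irradiated and 24.8 RPM (16.04 to 60.04) in sham libraries. That separation held at the later times too, with effects of 6.28, 6.09, 5.61 and 4.94 (each ± 0.32) that did not pass the F test for a difference between times (adjusted p = 0.0876).

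Matn1 encodes matrilin-1, a matrix protein known from cartilage (chromosome 4, 130944385 to 130955475), and had no read in 21 of 24 sham libraries. Matn1 at 2 h had 17.7 RPM (7.99 to 45.4) in irradiated libraries and 0 RPM in all 6 sham libraries. Matn1 at 6 h had 159 RPM (107 to 179) in irradiated and 0 RPM (0 to 0.469) in sham libraries. Every irradiated library lay above every sham library, with the highest levels at 6 h. Matn1 at 1 day had 56.5 RPM (32.3 to 68.9) in irradiated libraries and 0 RPM in all 6 sham libraries. Matn1 at 1 week had 25.4 RPM (17.4 to 30.6) in irradiated and 0 RPM (0 to 0.259) in sham libraries. The effect differed between times (F test adjusted p = 1.79e-06) although its smallest value, 4.18, still met the steady rule. Because sham levels were at or near 0, its average of 5.41 ran from 2.37 to 7.24 over the alternative settings.

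Fam212b (5.38 ± 0.17), Phlda3, an inhibitor of Akt (4.92 ± 0.15), and Psrc1, a microtubule-binding protein (4.63 ± 0.17), followed. The stress protein gene Sesn2 (3.23 ± 0.16), cyclin G1 or Ccng1 (2.98 ± 0.07), the death receptor gene Fas (2.97 ± 0.22), the nuclease gene Aen (2.87 ± 0.16) and the long noncoding RNA Pvt1 (2.81 ± 0.20) completed the 10. All 10 were called at each of the 4 times. Pvt1 was the flattest, with 2.76, 3.09, 3.22 and 2.18 over the 4 times (F test adjusted p = 0.433), whereas Ccng1 had 3.66, 3.60, 2.93 and 1.72 (adjusted p = 4.91e-11).

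The largest steady falls were smaller than the rises. Klrd1, a lectin-like receptor known from natural killer and T cells (chromosome 6, 129591782 to 129598775), was the one steady fall of the 10 called at all 4 times. Klrd1 at 2 h had 1.60 RPM (0 to 3.53) in irradiated and 8.57 RPM (5.25 to 12.4) in sham libraries. Klrd1 at 6 h had 1.15 RPM (0.540 to 2.44) in irradiated and 6.37 RPM (2.53 to 10.9) in sham libraries. At both times the groups did not overlap. Klrd1 at 1 day had 0 RPM (0 to 0.530) in irradiated and 5.75 RPM (0 to 10.6) in sham libraries. Klrd1 at 1 week had 3.03 RPM (0.399 to 4.56) in irradiated and 6.76 RPM (3.57 to 19.9) in sham libraries. At 1 day 5 of 6 irradiated libraries had no read, and the sham library without one was the shallowest, library 6. The 4 effects were -2.002, -1.60, -2.32 and -1.45 (each ± 0.43; F test adjusted p = 0.626). The summed level of 14 lymphocyte markers was 226 to 368 RPM in irradiated and 446 to 721 RPM in sham libraries at 2 h, and 631 to 864 against 644 to 846 RPM at 1 week, nearly all of it Ighm. Of the defining markers, Cd3e, Cd3g, Gzma and Trbc2 were at 0 in all 48 libraries, and Nkg7 had reads in 1 of 24 irradiated and 0 of 24 sham libraries. The natural killer marker Klrb1c had reads in 6 of 24 irradiated and 13 of 24 sham libraries and the B cell marker Cd79a in 3 irradiated and 12 sham libraries; the part of these cells in the fall of Klrd1 was not tested.

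D7Ertd443e (chromosome 7, 134265779 to 134385661) varied more between animals. D7Ertd443e at 2 h had 1.92 RPM (0 to 5.05) in irradiated and 4.81 RPM (2.07 to 29.3) in sham libraries. D7Ertd443e at 6 h had 3.12 RPM (0.818 to 8.78) in irradiated and 6.21 RPM (3.79 to 28.7) in sham libraries. The groups overlapped, and 1 or 2 sham libraries stood far above the rest. D7Ertd443e at 1 day had 0 RPM (0 to 1.57) in irradiated and 7.81 RPM (1.75 to 17.0) in sham libraries. D7Ertd443e at 1 week had 3.36 RPM (1.197 to 8.88) in irradiated and 8.69 RPM (3.40 to 128) in sham libraries. Only the 1 day groups were apart, and only that time was called (-2.59 ± 0.60, adjusted p = 0.00363), while the average was -1.73 ± 0.30 (adjusted p = 1.54e-05).

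The further steady falls included the GTPase-activating protein gene Dlc1 (-1.39 ± 0.27), the survival kinase gene Pim2 (-1.25 ± 0.25), Adra2a, Grm3 and Cdca7 (-1.13 ± 0.18). Apobec2 (-1.12 ± 0.23), the chromatin organiser Satb1 (-1.08 ± 0.22) and Zswim5 closed the 10. Of these 8, Zswim5 was called at no single time, 5 were called at 1 time, and Cdca7 and Satb1 at 2. Cdca7 had medians of 19.0 RPM in irradiated and 34.9 RPM in sham libraries over all times, and Satb1 8.54 RPM in irradiated and 17.0 RPM in sham libraries.

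**Figure D4:**
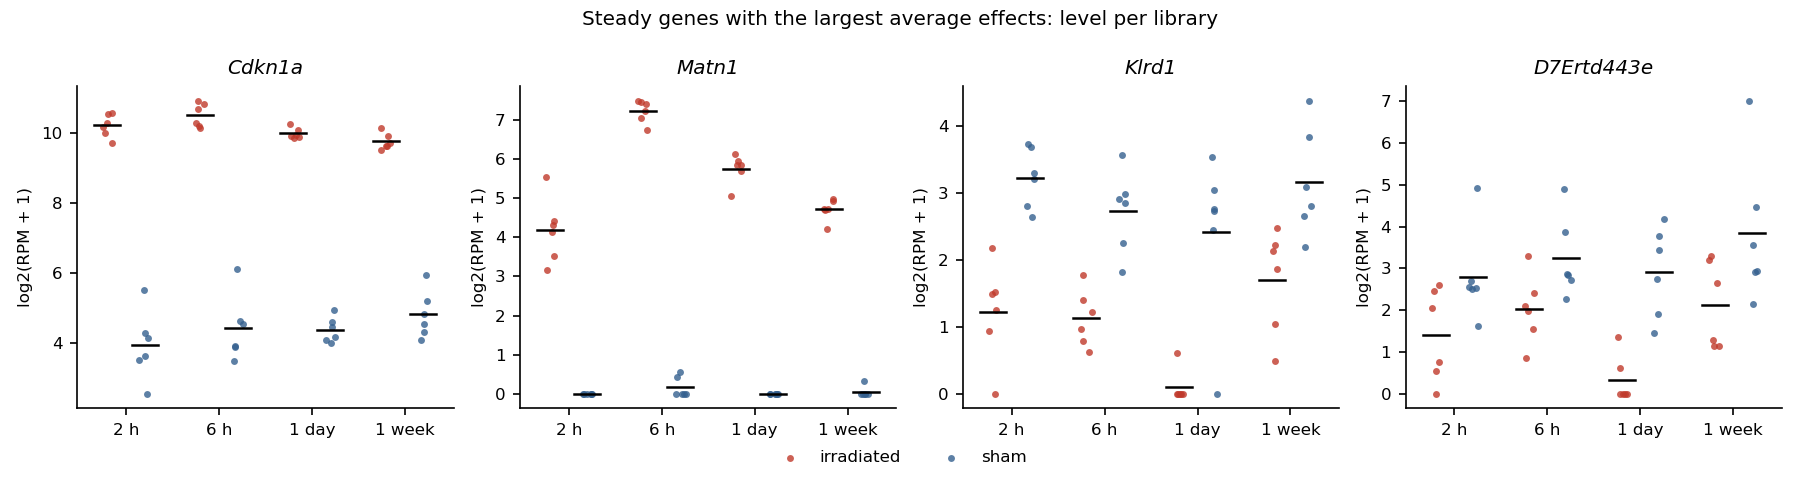
Level of 4 steady genes, the 2 with the largest average effects in each direction. Each point is 1 library, irradiated left of sham at each time on the x axis; the y axis is log2(RPM + 1); bars are group means of 6. Cdkn1a and Matn1 show no overlap at any time, Klrd1 is lower in irradiated libraries with overlap at 1 day and 1 week, and D7Ertd443e overlaps except at 1 day.

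Since many steady risers are known p53 targets, their promoters were searched for 1 form of the p53 recognition sequence. Other forms of it, the bases beside the cores and sites outside the window were not searched. The search was for a pair of cores, each being ACATGC or else ACATGT, or with G in first place GCATGC or else GCATGT, a set that reads the same on both strands, with starts 10 to 23 bases apart, in 300 bases around RefSeq starts (GRCm38.p6, 250 before and 50 after). Cores of a pair do not overlap, although more than 1 pair can share a core. Of 9090 tested genes with a promoter, 0.55% held such a pair, against 0.695% of 863 genes called higher on the average. The shares were 1 of 132 for steady rises and 1 of 116 for average-only rises. This form in this window thus did not set these genes apart, and nothing is read from it on p53 sites in general. The 2 genes are Cdkn1a and Utrn, which encodes utrophin, a relative of dystrophin. Utrn was called on the average alone (0.65 ± 0.21, adjusted p = 0.0213; 0.11, 0.92, 0.92 and 0.66 over the 4 times). Their windows are shown with the paired cores in capitals, Cdkn1a on the plus strand at chr17:29090729-29091028 and Utrn on the minus strand at chr10:12861686-12861985.
Cdkn1a: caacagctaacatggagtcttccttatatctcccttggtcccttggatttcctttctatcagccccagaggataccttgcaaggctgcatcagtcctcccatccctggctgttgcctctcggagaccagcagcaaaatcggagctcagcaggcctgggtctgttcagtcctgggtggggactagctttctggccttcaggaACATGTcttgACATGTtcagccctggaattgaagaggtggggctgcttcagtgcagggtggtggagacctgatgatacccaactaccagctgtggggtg
Utrn: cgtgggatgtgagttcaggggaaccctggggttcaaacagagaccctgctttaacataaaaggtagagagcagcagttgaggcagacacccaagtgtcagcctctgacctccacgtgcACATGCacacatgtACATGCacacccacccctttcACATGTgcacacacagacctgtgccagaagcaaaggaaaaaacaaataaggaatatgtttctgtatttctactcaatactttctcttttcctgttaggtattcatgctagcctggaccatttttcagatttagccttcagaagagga
The Cdkn1a cores begin 49 and 39 bases before the first of 2 RefSeq starts, and the window of the second start held no pair. Utrn holds 2 pairs, of which the first begins 132 and 118 bases before the start. A match of letters is a description of the window and not of binding.

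In gene lists, calls on the average were counted and read against the 8.9% of all genes that rose and the 6.2% that fell. Without sham 6 h libraries 1 to 4 fewer genes were called in all, 722 higher and 616 lower of 13187. A smaller list count without them is to be read against those numbers. List members found by the average alone numbered 32, and 12 of them were called without sham 6 h libraries 1 to 4: Cmpk2, Oas2, Isg15, Ndufb6, Rps12, Mrpl30, Cyp51, Wipi1, Gabarapl2, Ier5, Il6ra and Piezo1. The other 20 were not called then (adjusted p 0.0707 to 0.462). Some estimates moved little, such as Cox7c (0.61, and 0.65 without them), and others more, such as Kat2a (0.45 and 0.22). Without sham 1 day library 6, 23 of the 32 were called, and C4b, Cox7c, Cyp51, Gabarapl2, Ifi27l2a, Mrpl30, Psmd6, Rad52 and Rpl19 were not (adjusted p 0.0505 to 0.0731). Of 45 p53 targets 37 rose, 1 fell and 18 were steady, with a median effect of 1.72. Led by Ccng1 (2.98 ± 0.07), the extracellular sulfatase gene Sulf2 (2.77 ± 0.08) and Phlda3, the list gained 1 member from the average alone. That was Ddit4, an inhibitor of mTORC1 (0.91 ± 0.27, adjusted p = 0.0157; 1.62, 0.51, 0.30 and 1.21 over the 4 times). Of 49 genes of DNA damage signalling and repair 3 rose and 2 fell, shares below those of all genes. The checkpoint kinase gene Chek2 (1.10 ± 0.15) and the mismatch repair gene Msh6 (0.70 ± 0.11) led them. Rad52, a mediator of strand annealing, rose (0.46 ± 0.16) and Xrcc5, the Ku80 subunit of end joining, fell (-0.49 ± 0.17), both on the average alone. Cenpa, the histone variant of centromeres, was the 1 of 33 mitosis genes called on the average (-0.64 ± 0.21), with -1.18, -0.96, -0.52 and 0.12 over the 4 times. The average hides opposite values in this list: its median effect was -0.36, -0.36, -0.37 and 1.12 over the 4 times. At 1 week 5 of the 33 were called higher and 0 lower, where 3.44% of all genes were called in either direction. Of 40 S phase genes 2 rose and 1 fell, and of 32 apoptosis genes 6 rose and 1 fell, led by Bax (2.61 ± 0.20).

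Of 43 interferon-stimulated genes 30 rose on the average and 0 fell, with a median effect of 0.93, and 30 rose without sham 6 h libraries 1 to 4 as well. At single times 8 were called higher and 1 lower at 2 h, 17 and 1 at 6 h, 25 and 0 at 1 day, and 1 and 0 at 1 week. The antiviral protein gene Ifit3 (1.70 ± 0.20), the Schlafen gene Slfn2 (1.23 ± 0.14) and Parp14 (0.76 ± 0.10) had the smallest adjusted p. The average alone added Cmpk2, Oas2, an activator of RNase L (0.93 ± 0.29), Isg15, the ubiquitin-like modifier (1.38 ± 0.36), and Ifi27l2a (0.55 ± 0.19). Isg15 had 0.22 at 2 h and 1.503, 2.03 and 1.77 at the later times. Its group means at 2 h were 8.42 RPM in irradiated and 35.5 RPM in sham libraries, the opposite order to its log2 estimate there. Of 32 inflammatory genes 19 rose and 0 fell (median 0.79), led by Tlr2 (1.02 ± 0.08), Ccl12 (1.74 ± 0.15) and Cxcl10 (2.74 ± 0.24), and none was found by the average alone. At 1 week 1 of the 32 was called higher and 1 lower, against 15 and 1 at 2 h. Of 31 antigen presentation genes 11 rose and 1 fell, with the peptide transporter gene Tap1 (1.35 ± 0.11) first.

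Genes of the homeostatic microglial state fell by small amounts: 18 of 30 fell and 2 rose, with a median effect of -0.25, and 18 fell without sham 6 h libraries 1 to 4. At 1 week 2 were called higher and 2 lower (median -0.01). The ADP receptor gene P2ry12 averaged -0.72 ± 0.06 and the fructose transporter gene Slc2a5 -0.74 ± 0.09, while the nucleotide receptor gene P2ry6 rose (0.61 ± 0.06). Il6ra, a chain of the interleukin 6 receptor, was found by the average alone (-0.17 ± 0.06; -0.25, -0.28, -0.33 and 0.20 over the 4 times). Of 28 genes of disease-associated microglia 19 rose and 1 fell (median 0.46), led by Cd9 (0.68 ± 0.07), the cathepsin gene Ctsb (0.50 ± 0.05) and Lilrb4a (1.76 ± 0.21). Times differed in direction: 18 were called higher at 6 h and 14 at 1 day, whereas at 1 week 0 were higher and 5 lower (median -0.21). The summed level of monocyte and neutrophil markers was 25.1 to 92.8 RPM in irradiated and 14.4 to 57.0 RPM in sham libraries at 1 day, with Ly6g and Retnlg at 0 throughout; its part in these lists was not tested. In the complement and phagocytosis list (32 tested) there were 13 rises and 4 falls, but 7 and 3 without sham 6 h libraries 1 to 4; C3ar1 (1.04 ± 0.06) and C5ar1 (1.35 ± 0.10) led. C4b, a classical pathway component, was found by the average alone (0.63 ± 0.22). Of 56 lysosomal genes 12 rose and 3 fell, but 7 and 2 without those libraries.

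On the average, genes of energy and protein turnover were called in 1 direction, mostly in smaller number without sham 6 h libraries 1 to 4. Single times differed. In the unfolded protein and integrated stress response list 3 were called higher and 8 lower at 6 h, but 12 and 0 at 1 day. In the proteasome list 8 and 2 were called at 6 h. Over the 4 times 3, 20, 1 and 0 oxidative phosphorylation genes were called higher (1 lower, at 1 day). For cytosolic ribosomal protein genes these were 3, 28, 1 and 0. At 6 h 20.1% of all genes were called, with all libraries used for every single time. Of 74 oxidative phosphorylation genes 10 rose and 0 fell (median 0.18), and Cox7c (0.61 ± 0.21), Cyc1 (0.35 ± 0.12), Ndufb8 (0.52 ± 0.18) and Ndufb6 were found by the average alone. Without sham 6 h libraries 1 to 4, 2 of the 74 rose, and with the gene span trend removed 5 rose. Of 77 cytosolic ribosomal protein genes 12 rose and 0 fell, with Rps19 (1.36 ± 0.12) far ahead and Rps12 (0.77 ± 0.21) and Rpl19 (0.52 ± 0.18) on the average alone; 5 rose without those libraries. Of 41 proteasome genes 6 rose, with Psmc2 (0.41 ± 0.12) and Psmd6 (0.26 ± 0.09) on the average alone, but 3 without those libraries. Of 34 genes of the unfolded protein and integrated stress response 10 rose, with the serine metabolism gene Shmt2 (0.52 ± 0.18) and the transcription factor gene Atf5 (0.68 ± 0.20) on the average alone, but 2 rose without those libraries. Of 25 genes of cholesterol synthesis and uptake 5 rose, with the sterol demethylase gene Cyp51 (0.45 ± 0.16) on the average alone, but 2 rose without those libraries. Of 75 mitochondrial ribosomal protein genes 2 rose, fewer than the background share.

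Other lists had calls in both directions. Of 46 ion channels and transporters 8 rose and 8 fell, and Piezo1 was the 1 member found by the average alone. Of 45 cytokine receptor and JAK-STAT genes 7 rose and 7 fell, from Il2rg (1.75 ± 0.21) to the interleukin 7 receptor gene Il7r (-1.10 ± 0.13), and Il18rap, a chain of the interleukin 18 receptor, was found by the average alone (-0.82 ± 0.24). Of 70 chromatin regulators 5 rose and 7 fell, with Hdac4 first (1.80 ± 0.14), but 3 and 3 without sham 6 h libraries 1 to 4. Smarcb1, a core subunit of the SWI/SNF remodeller (0.46 ± 0.15), the acetyltransferase gene Kat2a (0.45 ± 0.15) and the demethylase gene Kdm6a (-0.38 ± 0.11) were found by the average alone. Of 41 autophagy genes 4 rose and 5 fell, with Wipi1 (0.65 ± 0.19) and Gabarapl2 (-0.51 ± 0.18) on the average alone. Of 28 TGF-beta signalling genes 4 rose and 6 fell, and of 28 glycolysis and hypoxia genes 2 rose and 4 fell. Of 26 immediate early genes 2 rose and 2 fell, and 3 of these, Ier5 (0.35 ± 0.10), Ier3 (0.52 ± 0.17) and the heat shock gene Hspa1b (-0.75 ± 0.24), were found by the average alone. With the gene span trend removed 0 of the 26 rose and 6 fell. Of 25 histone genes tested 1 rose and 1 fell.

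**Figure D5:**
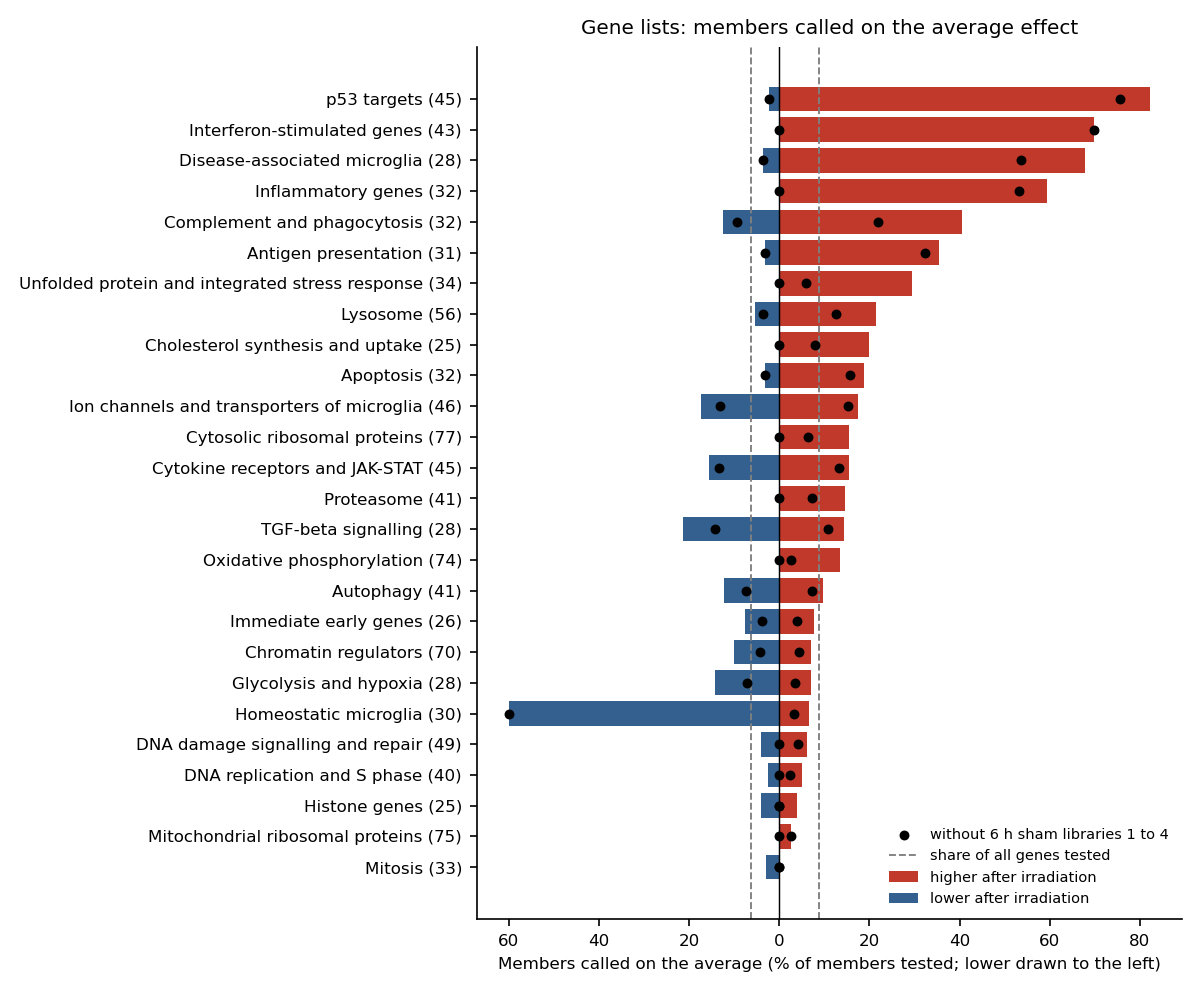
Members of 26 gene lists called on the average, as a percentage of the members tested (number in parentheses). Bars to the right are rises and bars to the left falls after irradiation, and black points the same without sham 6 h libraries 1 to 4. Dashed lines are the shares of all genes with all libraries, 8.9% and 6.2%. They are the background of the bars and not of the points, for which 722 of 13187 genes rose and 616 fell. Interferon-stimulated genes keep their share of rises and homeostatic genes their share of falls, while oxidative phosphorylation has 2 rises without those libraries and 10 with them.

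To see how far an average carries over to a time that did not shape it, genes were called over 3 times and their values read at the fourth, in other animals. Of 1578 genes called without 2 h, 73.8% had the same sign at 2 h, against 56.5% of all genes. The share was 82.7% of 1108 genes at 6 h (all genes 57.0%), 67.7% of 2053 at 1 day (55.1%), and 52.4% of 2490 at 1 week (48.4%). At 1 week 14.5% of the genes had an unadjusted p under 0.05, against 8.66% of all genes, while at 6 h it was 55.7%, against 20.8%. The carry-over was thus high at 6 h and slight at 1 week.

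An average also hides effects of opposite sign. Of 3823 genes called at a single time or more, 2129 were not called on the average, and 131 of these were called higher at 1 time and lower at another. Mmp12, a macrophage elastase, had group means of 25.8 RPM in irradiated and 1.43 RPM in sham libraries at 1 day, and 0.446 and 6.56 RPM at 1 week. Its effects there were 3.08 ± 0.51 and -2.07 ± 0.51, and its average was 0.32 ± 0.26. Mt1, a metallothionein, had 11.2 RPM in irradiated and 36.1 RPM in sham libraries at 2 h, and 52.3 and 17.1 RPM at 6 h (-1.37 ± 0.37 and 1.72 ± 0.37). The transcription factor gene Hivep1 was higher at 2 h (1.89 ± 0.36) and lower at 6 h (-1.32 ± 0.36), and Tab1, an adaptor of the kinase TAK1, lower at 2 h (-1.50 ± 0.41) and higher at 6 h (1.36 ± 0.41). H2-Oa, which tunes peptide loading of class II molecules, was higher at 6 h (1.28 ± 0.48) and lower at 1 day (-2.08 ± 0.48), and Zfp652os lower at 2 h (-1.80 ± 0.60) and higher at 1 week (1.98 ± 0.60). Without sham 6 h libraries 1 to 4 the number of such genes was 62, against 131 with all libraries.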

How the data were processed

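Microglia of 24 irradiated and 24 sham mice were sequenced as bulk RNA, 1 library per animal. The submitters' processing notes name featureCounts 1.5.1 and STAR 2.6.1d, with FastQC 0.11.8 and bcl2fastq 2.20.0, and the build GRCm38; annotation and strand setting are not given in the sources used here, so reads of overlapping genes may be shared. The deposited values are RPKM made by the authors from read counts and gene spans with introns. In them 48 library totals recur over rows in 48 patterns, so that 2.05% of values had been divided by their own library's total, and the deposited value was 0.436 to 3.11 times the recomputed one (5th to 95th percentile). Multiplying back gave whole reads (within 0.001) for 100% of 719081 values above 0, and 31 of 48 library sums matched a total exactly (largest gap 13 reads). For 95 genes more than 1 read number was possible, none above 7 reads.

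Recovered reads were divided by the library's own total (RPM), since a fixed RPKM floor weighs long genes less. Genes with at least 2 mean reads and a read in at least 12 libraries were fitted in limma 3.58.1 (R 4.3.3; trend and robust) on log2(RPM + 1) with 8 group means, which leaves 40 residual degrees of freedom. The contrast was the mean of the 4 irradiated minus sham differences, with single times and an F test of their differences from the same fit and Benjamini-Hochberg adjustment over all tested genes. The procedure was tested on simulated data. Named genes were the 12 in each direction of smallest adjusted p called on the average alone, the 10 steady genes in each direction of largest effect, the 8 in each direction of smallest adjusted p among called genes under 10 mean reads, the 3 largest effects in each direction, the 6 cancelling genes of widest swing, and up to 3 members of smallest adjusted p per list. Average-only list members, Utrn and list genes outside this rule were added after their values were seen. Predicted genes, pseudogenes and small RNA genes were counted but not named, and some genes that the rule picked are not reported here. The genes of few reads, the lists and the tests were chosen with earlier results of these data known. Alternatives covered the pseudocount, filters, scaling, RPKM scales, voom weights, an additive model, libraries or times left out, a replicate block and gene span; the GC content correction was chosen after seeing the data. Depth limits precision most for genes of few reads. Figures used matplotlib 3.10.9.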

Additional observations from a re-analysis of the deposited data

Results flagged for a closer look

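Of 78 groups of 6 libraries examined for the genes shown by library, 10 had 1 library apart from the others by Dixon's criterion. Its limit is set for about 1 in 20 in normally distributed values. RPM can be skewed or at 0, and a group with reads in 1 library is flagged by construction. The 10 are therefore not set against that rate. Lrrfip1 was at 256 RPM in irradiated 1 day library 6, and Rras2 at 404 RPM in sham 2 h library 6. Cdkn1a was at 44.3 RPM in sham 2 h library 2 and at 68.1 RPM in sham 6 h library 5. Matn1 was at 45.4 RPM in irradiated 2 h library 1 and at 0.259 RPM in sham 1 week library 5, the 1 library of its group with a read. Klrd1 was at 0.530 RPM in irradiated 1 day library 6, again the 1 library with a read. D7Ertd443e was at 29.3 RPM in sham 2 h library 4, at 1.57 RPM in irradiated 1 day library 1 and at 128 RPM in sham 1 week library 2.

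Of 133 named genes 59 had an effect that differed between the 4 times (limma F test, adjusted p in parentheses), so that their average does not stand for each time. The estimate was largest in size at 2 h in Ccng1 (4.91e-11), Tlr2 (4.05e-10), Orai2 (1.59e-08), Zfp365 (5.61e-07), Cxcl10 (8.77e-07), Pmepa1 (2.3e-06), Hivep1 (8.25e-05) and Tnfrsf10b (0.000106). The same time was largest for Sesn2 (0.000306), Apaf1 (0.00159), Tab1 (0.00187), Parp14 (0.00212), Slc1a3 (0.00214), Psmb4 (0.00237), Phlda3 (0.00298) and Fas (0.00327). Further genes with 2 h first were Herpud1 (0.00405), Tap1 (0.00425), Aen (0.00432), Ipcef1 (0.0237) and Nusap1 (0.0448). The estimate was largest in size at 6 h in Celf5 (7.37e-07), Sulf2 (8.69e-07), Slc2a5 (9.8e-07), Matn1 (1.79e-06), Crip2 (5.49e-06), Ahnak2 (6.09e-06), Gusb (6.39e-06) and Mt1 (0.000182). The same time was largest for P2ry6 (0.000531), C5ar1 (0.000806), Psrc1 (0.000882), Chek2 (0.00109), Rps19 (0.00111), Gpr165 (0.00115), Rpl32 (0.00128) and H2-K1 (0.00146). Further genes with 6 h first were P2ry12 (0.00366), Bax (0.00435), Bcl2l1 (0.00498), Vmp1 (0.0104), Id2 (0.0117), Plb1 (0.0127) and Hdac4 (0.0198). Further genes with 6 h first were Dnmt3a (0.0209), Psmb6 (0.0321), Cox5b (0.0395), Slc2a1 (0.0399) and Ccl12 (0.0402). The estimate was largest in size at 1 day in Ctsb (1.72e-12), C3ar1 (1.31e-07), Mmp12 (1.1e-05), Pdia3 (0.000267), H2-Oa (0.00173), Lilrb4a (0.00382) and Prr15l (0.0181). The estimate was largest in size at 1 week in Nrros (0.000217), Zfp652os (0.00516) and Cdc6 (0.0244).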

How the results depend on the processing

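The numbers of genes higher, lower, called on the average alone and steady (1174, 818, 298 and 291) and of genes with cancelling effects (131) stayed within 1.5 times under most alternatives, and no named gene called on the average reversed. The balance of directions did reverse: with the gene span trend removed 897 genes rose and 1101 fell, so that 44.9% of calls were rises, against 58.9%, and the median effect of all genes was -0.03, against 0.03. On the RPKM as deposited there were 126, 8, 56, 50 and 0, and 87.7% of genes kept their sign at the time left out, against 66.1%; fewer genes were tested there. Without sham 6 h libraries 1 to 4, which leaves fewer sham animals at 6 h and so less precision, 722 genes rose and 62 cancelled. The number called on the average alone was 287 there, but only 79 of the 298 were among them, so a similar count held mostly other genes. The average without 6 h gave 617 higher, 491 lower, 189 on the average alone and 49 cancelling. Leaving out another time gave 442 steady and 72 cancelling genes (2 h), 619 steady (1 day), and 935 steady and 75 cancelling (1 week); fewer estimates had to meet the steady rule. Cancelling genes numbered 54 with no filter and 231 with voom quality weights; the cause was not tested. Leaving out 1 library at a time gave 1100 to 1277 higher, 749 to 906 lower, 269 to 343 on the average alone, 278 to 310 steady and 90 to 176 cancelling genes. Replicate numbers did not pair animals: of 24 pairs 3 correlated above 0.1 (range -0.25 to 0.22). With the replicate block 1131 genes rose, 787 fell, 295 were called on the average alone, 288 were steady and 122 cancelled. With GC content and gene span trends removed 846 rose and 1028 fell. Depth limits genes of few reads: 6.83% of those with 2 to 10 reads were called on the average.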
